A study of Mus musculus with 6 samples.

Results

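Sez6l2, Vstm2l, Maneal, Mapk8ip2, Dlgap3, Crmp1, Soga3 and Sult4a1 are 8 mouse genes, most of them best known from neurons, out of the 11736 genes listed in each library. They were chosen by their log2 change between Cdyl-KO and Cdyl-Het gonadal cells in these same libraries, and all 8 were found by their symbols. Their levels and changes are therefore a description and carry no test. The name neuronal rests on textbook knowledge of the genes, since the libraries hold no nervous tissue to compare with. They made up 8 of the 9 largest log2 changes in the whole list; Stmn3 held the second place.

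Both groups were XY embryos of strain C57BL/6 at embryonic day E11.5 that carried Nr5a1-hCD271, a genotype that lets cells be sorted by the surface protein hCD271; Nr5a1 encodes a transcription factor of gonadal somatic cells. Cells positive for hCD271 were taken from the gonads with magnetic beads, and total RNA was sequenced. The 3 Cdyl-KO libraries lack intact Cdyl by their label, and the 3 Cdyl-Het libraries carry 1 altered allele, so the baseline is a heterozygote and not a wild type. What kind of mutation the altered allele carries was not stated in the labels. Nor do they say whether libraries came from separate embryos, pools or litters. A p-value here reflects only how far these samples spread, and that spread may be technical.

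CDYL is a corepressor whose chromodomain recognises methylated lysines of histone H3. In other cells it has been described as a bridge between REST, a zinc-finger repressor that keeps neuronal genes silent outside neurons, and the histone H3 lysine 9 methyltransferases. Cells of the gonad are not neurons, and genes of this kind are usually held at a low level in them.

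Levels are given as scaled RPKM, that is RPKM (reads scaled by exon length and by library total) divided by a scaling factor per library. The deposited values implied 42.9 to 45.2 M reads in the Cdyl-KO libraries and 34.6 to 44.1 M in the Cdyl-Het libraries. Across genes, which are not independent replicates, log2 levels correlated at 0.976 to 0.983 within groups and 0.962 to 0.977 between them. Cdyl itself had 6.77, 6.93 and 7.07 scaled RPKM in Cdyl-KO, against 7.77, 8.06 and 8.22 in Cdyl-Het, a log2 change of -0.19 (SE 0.05) that missed the threshold (limma adjusted p = 0.0702) and passed it without scaling (0.0145; range over alternatives 0.0145 to 0.193). Cdyl transcript was thus still read in every Cdyl-KO library, and which exons the mutation alters was not analysed here. The somatic markers Nr5a1 (77.7 ± 7.31 in Cdyl-KO and 85.8 ± 7.76 in Cdyl-Het), Wt1 (75.9 ± 1.84 in Cdyl-KO and 70.5 ± 4.93 in Cdyl-Het) and Gata4 (75.1 ± 6.24 in Cdyl-KO and 79.1 ± 8.20 in Cdyl-Het; all SD, n = 3 per group) were abundant in both groups.

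Over all genes, limma called 548 higher and 332 lower in Cdyl-KO at an adjusted p under 0.05. This is 4.67% and 2.83% of the list. Without scaling, the median of all genes stood at -0.12 on the log2 scale and the calls were 305 higher and 1558 lower, so 16.4% of calls were higher instead of 62.3%. With upper-quartile scaling 50.8% of calls were higher. All 8 genes were called higher in every one of these fits, beside a background of 4.67% higher and 7.5% in either direction, and nothing is read from that count because it is what chose them.

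Sez6l2 encodes a transmembrane protein of the SEZ6 family on the surface of neurons. It lies on chr7:126950563-126970606 on the plus strand, with 17 exon blocks (GENCODE M21, GRCm38, the build called mm10). It had 14.1, 13.5 and 14.3 scaled RPKM in the 3 Cdyl-KO libraries, against 1.22, 1.45 and 1.66 in the 3 Cdyl-Het libraries. The groups were far apart, and the values within Cdyl-KO lay close together. The mean was 13.96 ± 0.410 in Cdyl-KO and 1.44 ± 0.223 in Cdyl-Het, 9.69-fold, with a log2 change of 2.62 (SE 0.08). This was the largest log2 change of any listed gene on this scale, log2(scaled RPKM + 1). The implied reads were 2476, 2364 and 2520 in Cdyl-KO and 185, 248 and 328 in Cdyl-Het. Exons of Gm21984 on the same strand overlap 413 bases (9.81%) of the Sez6l2 exons, so some reads could belong to either gene.

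Vstm2l, on chr2:157914653-157944719 (plus strand, 4 exon blocks), encodes a small protein with an immunoglobulin-like domain that is expressed in the brain. It had 9.54, 8.36 and 8.19 scaled RPKM in Cdyl-KO, against 1.70, 1.12 and 1.16 in Cdyl-Het. Replicate 1 was the highest in both groups, and the lowest Cdyl-KO library was 4.81 times the highest Cdyl-Het library. The means were 8.70 ± 0.733 in Cdyl-KO and 1.33 ± 0.328 in Cdyl-Het, 6.56-fold, with a log2 change of 2.07 (SE 0.11). At 1363 bases of exon it is the shortest of the 8 genes. Its Cdyl-Het values rest on 62 to 84 implied reads, the thinnest reading among them. Both reads of a pair may be counted in these numbers, so the fragments behind them may be fewer.

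Maneal, on chr4:124855239-124862171 (minus strand, 4 exon blocks), is related in sequence to Manea, the Golgi endo-alpha-mannosidase that trims N-glycans. It had 7.63, 5.43 and 8.19 scaled RPKM in Cdyl-KO, against 1.30, 0.900 and 0.954 in Cdyl-Het. The second Cdyl-KO library was well below the other two but still above every Cdyl-Het library. The means were 7.08 ± 1.46 in Cdyl-KO and 1.05 ± 0.216 in Cdyl-Het, 6.74-fold, with a log2 change of 1.97 (SE 0.15). Its coefficient of variation in Cdyl-KO, 20.6%, was the highest of the 8 genes.

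Mapk8ip2, on chr15:89453913-89464468 (plus strand, 12 exon blocks), encodes JIP2, a scaffold that brings together kinases of the JNK cascade. It had 5.76, 5.52 and 5.48 scaled RPKM in Cdyl-KO, against 0.631, 0.474 and 0.793 in Cdyl-Het. All Cdyl-Het libraries were under 1, and the Cdyl-KO libraries were nearly level with each other. The means were 5.58 ± 0.149 in Cdyl-KO and 0.632 ± 0.160 in Cdyl-Het, 8.83-fold, with a log2 change of 2.02 (SE 0.09). Mapk8ip2 is the single gene of the 8 whose deposited mean in Cdyl-Het, 0.666, was under 1, so it is in the list through its level in Cdyl-KO.

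Dlgap3, on chr4:127169204-127237022 (plus strand, 14 exon blocks), encodes SAPAP3, which links PSD-95 to Shank proteins at excitatory synapses. It had 7.27, 7.60 and 8.65 scaled RPKM in Cdyl-KO, against 1.66, 1.65 and 1.91 in Cdyl-Het. Replicate 3 was the highest in both groups and the groups did not overlap. The means were 7.84 ± 0.723 in Cdyl-KO and 1.74 ± 0.151 in Cdyl-Het, 4.50-fold, the lowest fold of the 8 genes, with a log2 change of 1.69 (SE 0.08).

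Crmp1, on chr5:37241940-37292133 (plus strand, 17 exon blocks), encodes a collapsin response mediator protein, a cytosolic partner of tubulin and actin that acts downstream of semaphorin 3A in growth cones. It had 10.9, 11.01 and 11.3 scaled RPKM in Cdyl-KO, against 2.39, 1.71 and 2.64 in Cdyl-Het. The Cdyl-KO values had the smallest relative spread of all 8 genes (1.94%), whereas those of Cdyl-Het spread by 21.5%. The means were 11.05 ± 0.215 in Cdyl-KO and 2.25 ± 0.483 in Cdyl-Het, 4.92-fold, with a log2 change of 1.90 (SE 0.11).

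Soga3, on chr10:29143839-29199630 (plus strand, 8 exon blocks), belongs to a family with Soga1 and the microtubule crosslinker Mtcl1. It had 11.6, 12.9 and 13.3 scaled RPKM in Cdyl-KO, against 2.74, 2.42 and 2.92 in Cdyl-Het. It was the highest of the 8 genes in the Cdyl-Het libraries. The means were 12.6 ± 0.897 in Cdyl-KO and 2.69 ± 0.253 in Cdyl-Het, 4.68-fold, with a log2 change of 1.88 (SE 0.08). Its exons are overlapped by Gm49353 on the same strand (327 bases) and by Gm9996 on the opposite strand (356 bases). Its values did not come out as whole reads with the annotated exon length, so no read number is given for it.

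Sult4a1, on chr15:84076097-84105754 (minus strand, 8 exon blocks), encodes a brain-expressed member of the cytosolic sulfotransferases whose substrate is not firmly known. It had 5.50, 5.67 and 5.75 scaled RPKM in Cdyl-KO, against 1.23, 0.743 and 1.44 in Cdyl-Het. The Cdyl-KO libraries lay close together, and the second Cdyl-Het library was the lowest. The means were 5.64 ± 0.130 in Cdyl-KO and 1.14 ± 0.360 in Cdyl-Het, 4.95-fold, with a log2 change of 1.65 (SE 0.13).

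**Figure D1:**
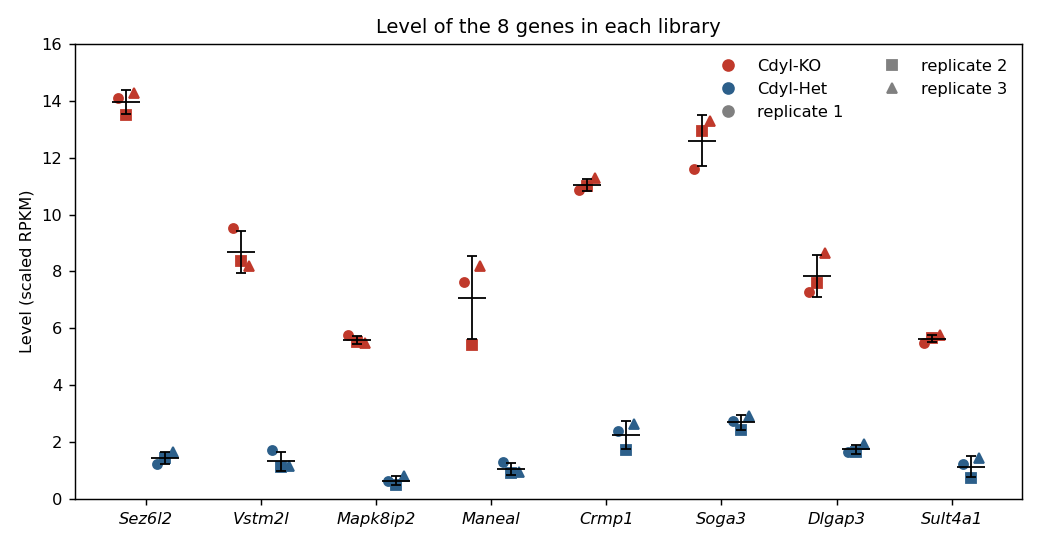
Level of each gene in scaled RPKM (vertical axis, from 0) in the 3 Cdyl-KO and 3 Cdyl-Het libraries; symbols mark the replicate, and the black dash and bar give the mean and SD. The highest mean in Cdyl-KO is that of Sez6l2 (13.96), every Cdyl-Het value is under 3, and no gene's groups overlap.

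All Cdyl-KO libraries were above all Cdyl-Het libraries for each of the 8 genes, as they were for 17.1% of all listed genes; groups without overlap in either direction made up 31.6%. Relative spread was the larger one in Cdyl-Het for 6 of the 8, with a median coefficient of variation of 5.03% in Cdyl-KO and 21.04% in Cdyl-Het. The SD itself was the larger one in Cdyl-KO for 5 of the 8. In Cdyl-Het the 8 genes were among the lowest of the list, between percentiles 0.222 and 20.8 of level. In Cdyl-KO they stood between percentiles 47.8 and 78.5, around the middle of the list or above it. Both groups have the same listed genes, and the list asks for a mean of about 1 in at least 1 group. Of the 8 genes only Mapk8ip2 had a deposited mean under 1 in Cdyl-Het. A gene that low in both groups would not be analysed here.

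The order of the genes also differed between the groups. In Cdyl-KO the order was Sez6l2, Soga3, Crmp1 and Vstm2l, each above the next without overlap between libraries. Below them came Dlgap3, Maneal, Sult4a1 and Mapk8ip2, whose libraries overlapped with those of the next gene in order, as did those of Vstm2l with Dlgap3. In Cdyl-Het the order was Soga3, Crmp1, Dlgap3, Sez6l2, Vstm2l, Sult4a1, Maneal and Mapk8ip2. There every neighbour in the order overlapped except Maneal and Mapk8ip2. Sez6l2 was thus the highest gene in Cdyl-KO and the fourth in Cdyl-Het.

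The libraries of a group did not rank the same way for all 8 genes, yet they leaned one way. Among Cdyl-Het libraries, the second was the lowest for 7 of the 8 genes and the third was the highest for 6. Among Cdyl-KO libraries, the third was the highest for 6. Summed over the 8 genes, levels were 72.2, 70.0 and 75.1 scaled RPKM in Cdyl-KO, against 12.9, 10.5 and 13.5 in Cdyl-Het. The sums of the 2 groups were far apart compared with either spread (SD 2.56 in Cdyl-KO and 1.602 in Cdyl-Het, n = 3 each).

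**Figure D2:**
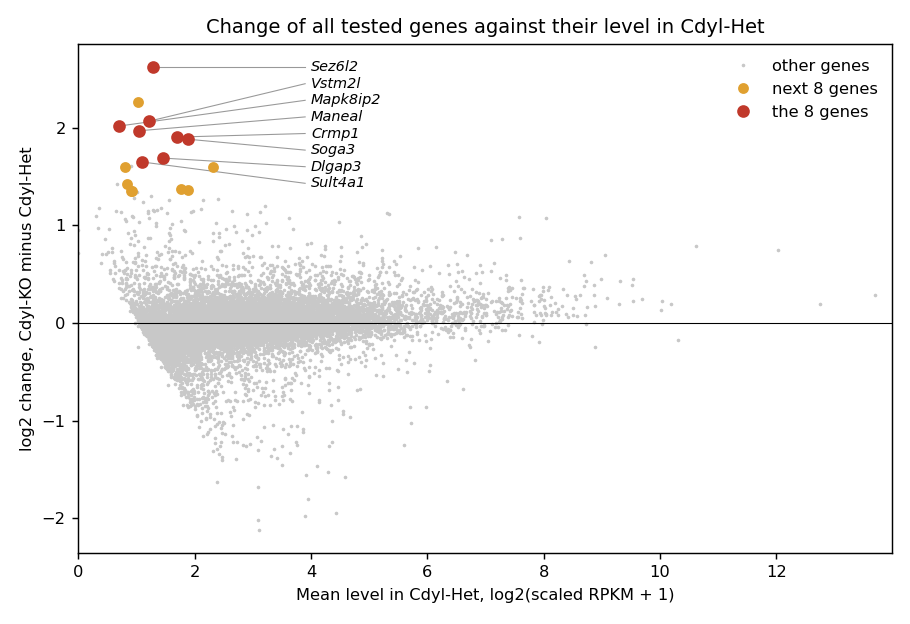
Log2 change between Cdyl-KO and Cdyl-Het (vertical axis) against the mean level in Cdyl-Het as log2(scaled RPKM + 1) for all 11736 genes, with the 8 genes in red and the next 8 in orange. The 8 genes lie at 1.65 to 2.62 and at the low end of the level axis, where the slanted left edge of the cloud comes from the minimum level that the list asks for.

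Leaving out 2 miRNA genes, which the rule for named genes does not take, the 8 genes nearest outside the choice lay at log2 changes of 1.35 to 1.597, apart from Stmn3 at 2.26. They are given without a test. Stmn3, a microtubule-destabilising stathmin of neurons, had 8.67 ± 0.582 scaled RPKM in Cdyl-KO and 1.04 ± 0.371 in Cdyl-Het. Cntnap5a, a contactin-associated membrane protein, stood at 1.597 and Ptprn, a protein of dense-core vesicles, at 1.59. Gdap1l1 (1.42), Gprin1 (1.37), Slitrk1 (1.36) and Tmem179 (1.35) were among those that followed. The lowest of the 8 chosen genes, Sult4a1, stood at 1.65, so the choice ends within a run of close values.

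Genes whose pattern over the 6 libraries was most like the mean profile of the 8 were found by Pearson's r on log2 levels. The closest was Brinp1, with r = 0.9996 and 2.38 ± 0.0492 scaled RPKM in Cdyl-KO and 0.940 ± 0.0669 in Cdyl-Het. Rbfox1 (r = 0.998), a neuronal splicing regulator, and Fbxl16 (0.997) came next. Enpp2 (0.997), Nell2 (0.996), Olfm1 (0.996), Man2b2 (0.996) and Cplx2 (0.996) completed the 8 closest of 11671 genes. Each of the 8 chosen genes had an r of 0.988 to 0.999 with the mean profile that it is itself part of. All points share the same 6 libraries in 2 groups. The size of the change does not enter r: Enpp2 differed by 0.49 on the log2 scale and Fbxl16 by 1.13.

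Promoter windows from RefSeq (GRCm38.p6), running from 250 bases before to 50 bases after a start site, were held for Mapk8ip2, Maneal, Crmp1, Soga3 and Dlgap3, with a pair of windows for Crmp1. Sez6l2, Vstm2l and Sult4a1 had no window. The following 4 are shown because they span the range of CpG content among the 5 genes with a window, and each CpG is in capitals. They read 5′ to 3′ on the strand of the gene: chr4:124862122-124862421 (minus) for Maneal, chr15:89453661-89453960 (plus) for Mapk8ip2, chr10:29143746-29144045 (plus) for Soga3 and chr4:127172630-127172929 (plus) for Dlgap3.
Maneal: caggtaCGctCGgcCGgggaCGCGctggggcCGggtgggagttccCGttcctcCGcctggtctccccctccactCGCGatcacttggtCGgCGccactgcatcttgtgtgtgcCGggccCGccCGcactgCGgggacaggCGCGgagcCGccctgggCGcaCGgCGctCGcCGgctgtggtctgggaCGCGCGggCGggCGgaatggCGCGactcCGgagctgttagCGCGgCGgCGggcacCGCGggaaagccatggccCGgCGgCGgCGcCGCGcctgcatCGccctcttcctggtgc
Mapk8ip2: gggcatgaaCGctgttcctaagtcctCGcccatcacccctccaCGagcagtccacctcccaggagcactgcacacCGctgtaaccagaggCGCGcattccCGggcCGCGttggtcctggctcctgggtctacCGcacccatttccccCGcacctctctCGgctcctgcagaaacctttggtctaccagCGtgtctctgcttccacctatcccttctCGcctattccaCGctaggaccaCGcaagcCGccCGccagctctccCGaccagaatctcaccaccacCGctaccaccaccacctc
Soga3: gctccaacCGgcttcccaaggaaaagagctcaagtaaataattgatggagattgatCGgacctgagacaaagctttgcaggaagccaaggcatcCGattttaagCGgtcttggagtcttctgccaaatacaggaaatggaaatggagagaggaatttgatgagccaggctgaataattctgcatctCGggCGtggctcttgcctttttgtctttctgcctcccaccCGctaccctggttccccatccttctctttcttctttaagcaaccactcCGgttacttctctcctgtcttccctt
Dlgap3: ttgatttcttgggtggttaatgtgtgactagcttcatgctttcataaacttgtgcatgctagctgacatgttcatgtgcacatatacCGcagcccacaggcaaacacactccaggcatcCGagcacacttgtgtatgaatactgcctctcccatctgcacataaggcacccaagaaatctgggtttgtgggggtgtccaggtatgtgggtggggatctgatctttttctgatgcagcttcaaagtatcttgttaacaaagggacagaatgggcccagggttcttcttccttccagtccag

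The windows had little in common. Maneal held 45 CpG, with 76.3% G and C and an observed to expected CpG ratio of 1.03, which is percentile 90.2 of the 10993 windows of listed genes. The first Crmp1 window was alike, with 41 CpG, 77.0% and 0.955. Mapk8ip2 was near the middle with 20 CpG, 63.3% and 0.784, and the second Crmp1 window held 20 CpG at 61.0% and 0.717. Soga3 held 8 CpG at 48.3% and 0.462. Dlgap3 held 2 CpG at 47.7% and 0.117, which is percentile 2.39. The Dlgap3 window and the second Crmp1 window lie inside their GENCODE genes and not at the first base. Over the 10993 windows the medians were 61.3% G and C and a ratio of 0.768.

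The binding site of REST was searched as its left part AGCACC and right part GGACAG with 2 bases between them, on both strands, with up to 2 mismatches over the 12 letters. None of the 6 windows held it, against 4.67% of the windows of listed genes. With up to 3 mismatches 1 of the 6 held it, in Crmp1, against 33.6%. The right part GGACAG alone was in 3 of the 6 windows (22.5% of windows of listed genes) and the left part AGCACC in 0 of 6 (16.5%). The GC box GGGCGG was in 4 of 6 (64.8%) and the TATA box TATAAA in 0 of 6 (6.68%). In the first 300 bases of the longest coding transcript, a window chosen after seeing the data, the site with up to 2 mismatches was in 2 of the 8 genes, Vstm2l and Maneal, and in 6.67% of 10764 genes. With up to 3 mismatches it was in 3 of the 8, against 43.1%, and with up to 1 in 0 of 8, against 0.66%. These matches describe letters in short windows only, and REST sites often lie outside promoters.

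The genes that share a family with the 8 were then set beside them. Of 26 listed paralogs, 12 were analysed. By limma at an adjusted p under 0.05, 4 rose in Cdyl-KO and none fell, beside 4.67% higher over all genes. At an unadjusted p under 0.05, 6 were higher and 2 lower. No share over all genes is given at that unadjusted level, here or below, so such counts are not read as a result. They are also not given for every list. The median log2 change of the 12 paralogs was 0.16, against -0.00059 over all genes and 1.93 in the 8 genes. Mapk8ip1, which encodes the related scaffold JIP1, rose to 16.4 ± 2.28 scaled RPKM in Cdyl-KO, against 9.03 ± 0.596 in Cdyl-Het, a log2 change of 0.79 (limma adjusted p = 0.00849). It passed in every alternative run (0.00786 to 0.0402). Mapk8ip3, the more distant JIP3, did not pass (-0.04).

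The other 3 calls among the paralogs were lost when some single libraries were left out, while the changes kept their direction and most of their size. With 1 library left out the log2 change was 0.34 to 0.43 for Dlgap4, 0.55 to 0.76 for Vstm2b and 0.29 to 0.38 for Mtcl1. Dlgap4, also a scaffold of the SAPAP family, had 10.5 ± 0.842 scaled RPKM in Cdyl-KO and 7.73 ± 0.0598 in Cdyl-Het, a log2 change of 0.40 (limma adjusted p = 0.0155, range over alternatives 0.0135 to 0.0647). It missed the threshold without the second (0.0551) or the third (0.0647) Cdyl-Het library and with the replicate number fitted as a block (0.0524). Vstm2b had 3.02 ± 0.586 in Cdyl-KO and 1.53 ± 0.237 in Cdyl-Het, a log2 change of 0.66 (limma adjusted p = 0.0267, range 0.0256 to 0.0975). It missed the threshold when any library but the third Cdyl-KO library was left out, at 0.0546 to 0.0975. Mtcl1 had 12.9 ± 0.899 in Cdyl-KO and 10.1 ± 0.343 in Cdyl-Het, a log2 change of 0.33 (limma adjusted p = 0.0276, range 0.0246 to 0.0947). It missed the threshold when any library but the first Cdyl-KO library was left out, and without scaling (0.0675). The count of 4 thus became 3 without the first or the third Cdyl-KO library, 2 without the second Cdyl-KO or the first Cdyl-Het library, and 1 without the second or the third Cdyl-Het library.

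The remaining 8 paralogs did not pass. Dpysl2, a CRMP far more abundant here than Crmp1, had 51.4 ± 1.68 scaled RPKM in Cdyl-KO and 44.4 ± 1.67 in Cdyl-Het (log2 change 0.21, limma adjusted p = 0.0635). Dpysl4 stood at 0.34 (limma adjusted p = 0.0693, range over alternatives 0.0313 to 0.185). It passed as higher with an untrended spread (0.0313), when the paralogs counted 5 higher. Dpysl3 stood at 0.11. Soga1 was level at 17.4 ± 1.09 in Cdyl-KO and 17.4 ± 1.25 in Cdyl-Het. Vstm4 was at -0.38 (limma adjusted p = 0.0505), a value that passed with any other scaling (0.0201 to 0.0491), with a minimum mean of 2 (0.0454) and without the first Cdyl-Het library (0.0418; range over alternatives 0.0201 to 0.152). Manea and Dlgap5 stood at -0.09 and -0.15.

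**Figure D3:**
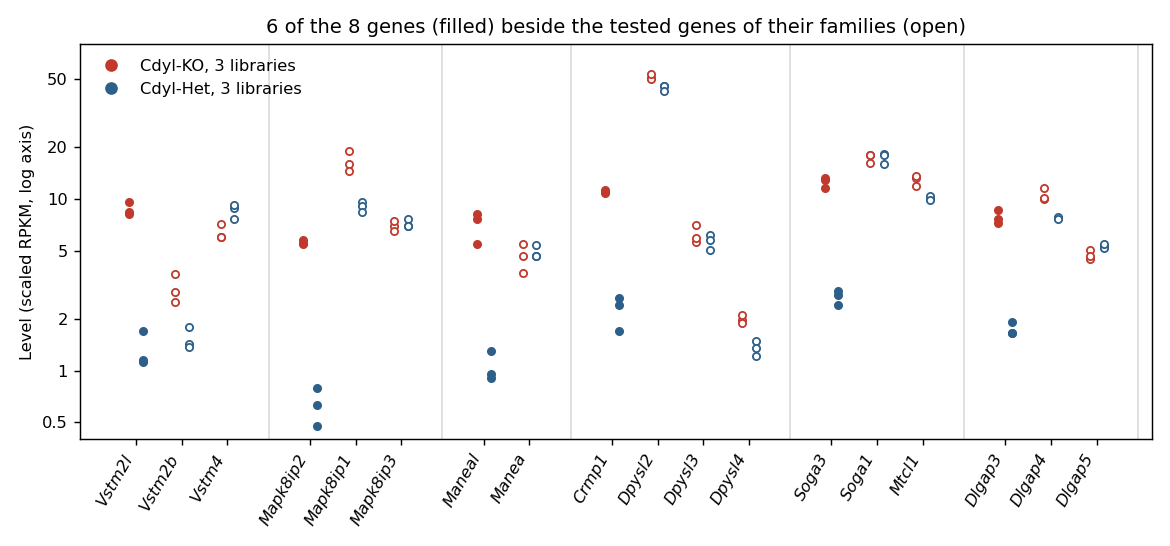
Level in scaled RPKM on a log axis for 6 of the 8 genes (filled circles) and the analysed genes of their families (open circles), with 3 Cdyl-KO and 3 Cdyl-Het libraries each. The filled pairs are apart by 4.50-fold or more, and the open pairs include overlapping and separate ones; Mapk8ip1 is the open pair with the largest log2 change (0.79).

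Partners of the encoded proteins were read from lists of other genes. Of 17 analysed genes of the JNK cascade around JIP2, 0 passed by limma, beside 7.5% in either direction over all genes. At an unadjusted p under 0.05, 5 were higher and 0 lower. Of 17 genes of N-glycan trimming around Maneal, 0 passed, with 1 higher and 3 lower at that unadjusted level. Of 8 genes of the sulfate donor pathway around Sult4a1, 0 passed, with 0 higher and 3 lower at that level. The median log2 changes of the 3 lists were 0.04, -0.01 and -0.17. In lists this short, 0 calls beside a share of 7.5% are not read as a lack of change.

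Of 31 genes of semaphorin signalling around Crmp1, 3 rose and 7 fell, beside 4.67% and 2.83% over all genes, and the median was -0.02. By limma at an unadjusted p under 0.05, 7 were higher and 9 lower. Plxna4, a plexin co-receptor for class 3 semaphorins, rose to 12.97 ± 0.394 scaled RPKM in Cdyl-KO, against 9.61 ± 0.206 in Cdyl-Het (log2 change 0.40, limma adjusted p = 0.00849). The ligand Sema3d fell to 1.22 ± 0.0579 in Cdyl-KO, against 2.63 ± 0.241 in Cdyl-Het (-0.71, adjusted p = 0.00849). Both passed in every alternative that held them; Sema3d was below the minimum mean of 2. Nrp2, a neuropilin receptor, had 1.64 ± 0.103 in Cdyl-KO and 2.90 ± 0.230 in Cdyl-Het (-0.56, limma adjusted p = 0.0128, range over alternatives 0.00908 to 0.0544). Nrp2 missed the threshold without the third Cdyl-Het library (0.0544) and with the replicate number fitted as a block (0.0501). The ligand Sema3c had 14.97 ± 0.142 in Cdyl-KO and 9.72 ± 1.41 in Cdyl-Het (0.58, adjusted p = 0.0157), and missed it without the first (0.0552) or second (0.0507) Cdyl-KO or the second Cdyl-Het library (0.06; range 0.00848 to 0.06). The counts were 1 higher and 2 lower without the first Cdyl-KO library, 1 and 3 without the second Cdyl-KO or the second Cdyl-Het library, and 2 and 1 without the third Cdyl-Het library. Without scaling they were 2 higher and 10 lower.

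Of 20 analysed genes of the postsynaptic scaffold around Dlgap3, 4 rose and none fell by limma (5 higher and 1 lower at an unadjusted p under 0.05), beside 4.67% higher and 2.83% lower over all genes, with a median of 0.06. Shank2, a Shank scaffold that binds SAPAP proteins, rose to 4.45 ± 0.501 scaled RPKM in Cdyl-KO, against 2.31 ± 0.411 in Cdyl-Het (0.72, limma adjusted p = 0.0142), and passed in every alternative run. Dynll2, a dynein light chain, had 19.1 ± 0.0282 in Cdyl-KO and 13.97 ± 1.28 in Cdyl-Het (0.43, limma adjusted p = 0.016, range over alternatives 0.0123 to 0.0597). Dynll2 missed the threshold without the first (0.057) or second (0.0527) Cdyl-KO or the second Cdyl-Het library (0.0597). With the replicate number fitted as a block it also missed (0.0504). Gria2, an AMPA receptor subunit, had 1.36 ± 0.0788 in Cdyl-KO and 0.523 ± 0.0503 in Cdyl-Het (0.63, adjusted p = 0.0252, range 0.00429 to 0.122). Its deposited mean in Cdyl-Het, 0.550, was under 1, so Gria2 is in the list through its level in Cdyl-KO. Its direction was thus fixed by the list, and its part in the count of 4 is not read as a result. Shank1 had 2.49 ± 0.0799 in Cdyl-KO and 1.61 ± 0.201 in Cdyl-Het (0.42, adjusted p = 0.0366, range 0.025 to 0.106). Gria2 and Shank1 missed the threshold whichever library was left out, and Shank1 also without scaling (0.0545) or with upper-quartile scaling (0.0595). The count of 4 higher became 1 without the first or second Cdyl-KO or the second Cdyl-Het library and 2 without any of the others. Without scaling it was 3 higher and 2 lower.

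Of 24 genes of REST, its partners and other corepressors, 2 were called higher and none lower, beside 4.67% higher and 2.83% lower over all genes, with a median of 0.05. By limma at an unadjusted p under 0.05, 4 were higher and 1 lower. Ehmt2, the histone H3 lysine 9 methyltransferase G9a, had 30.3 ± 0.650 scaled RPKM in Cdyl-KO and 25.1 ± 1.16 in Cdyl-Het (0.26, limma adjusted p = 0.0322, range over alternatives 0.0236 to 0.117). Rest itself had 30.9 ± 0.877 in Cdyl-KO and 26.7 ± 0.289 in Cdyl-Het (0.21, adjusted p = 0.0447, range 0.044 to 0.371). Both missed the threshold whichever library was left out, and without scaling, when the list counted 0 higher and 3 lower. Rest also missed it with upper-quartile scaling (0.0662) and with an untrended spread (0.0677). With the replicate number fitted as a block, both missed it (0.116 for Ehmt2 and 0.151 for Rest). The mean of Rest was the higher one in Cdyl-KO under every scaling run.

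The 8 genes lie on 6 chromosomes. Mapk8ip2 and Sult4a1 share chromosome 15 at 5.35 Mb from each other, and Maneal and Dlgap3 share chromosome 4 at 2.31 Mb. The nearest analysed gene on each side of the 8 genes gave 16 neighbours with a median log2 change of 0.08, a range of -0.10 to 0.45, and 14 of 16 under 0.3 in size. Kctd13, 4.93 kb from Sez6l2, had 3.80 ± 0.290 scaled RPKM in Cdyl-KO and 3.70 ± 0.498 in Cdyl-Het (0.03), and Cdipt on the other side stood at 0.23 (5.31 kb). Mtf1, 5.44 kb from Maneal, stood at -0.10. Yrdc, on the opposite strand with 4 bases of exon in common with Maneal, had 5.91 ± 0.502 in Cdyl-KO and 5.03 ± 0.200 in Cdyl-Het (0.19, limma adjusted p = 0.136).

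By limma 1 of the 16 neighbours rose and none fell, beside 4.67% higher over all genes at the same adjusted threshold. At an unadjusted p under 0.05, 7 were higher and 0 lower. No share over all genes is given at that level, so this count is not read as a result. The neighbour that rose was Arsa, the lysosomal arylsulfatase A, 8.01 kb from Mapk8ip2. Arsa had 3.77 ± 0.125 scaled RPKM in Cdyl-KO and 2.50 ± 0.222 in Cdyl-Het (0.45, adjusted p = 0.0167, range over alternatives 0.017 to 0.0605). It missed the threshold without any single Cdyl-KO library (0.0518 to 0.0565), without the second Cdyl-Het library (0.0605) and with the replicate number fitted as a block (0.0535). Wfs1, at 0.44 beside Crmp1 (adjusted p = 0.123), passed without the second Cdyl-KO library (0.0341), so the count stayed at 1 in that setting with a different gene.

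**Figure D4:**
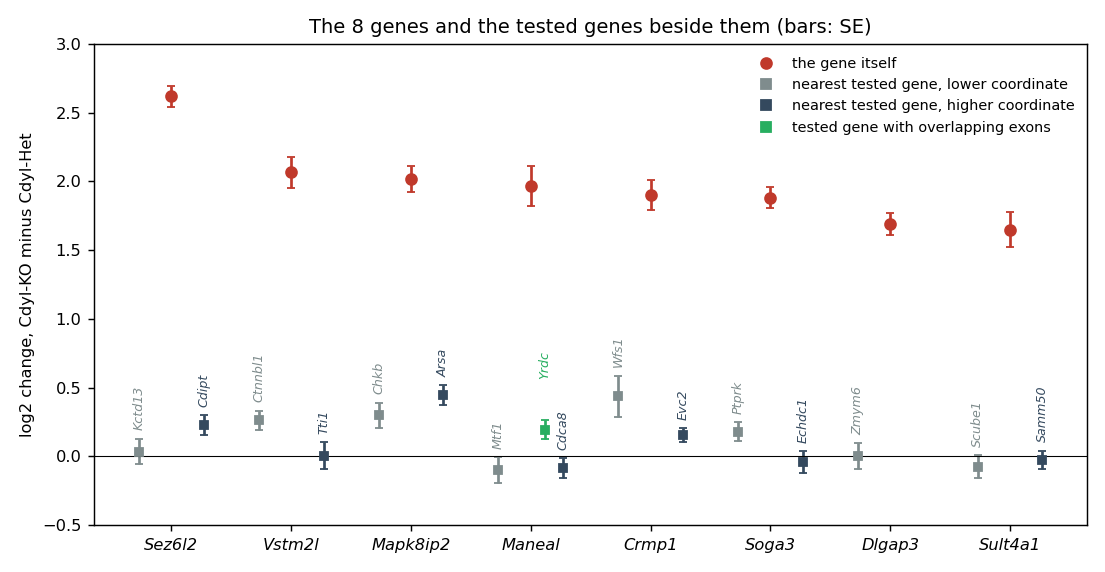
Log2 change with its SE for each of the 8 genes (red circles) and for analysed genes on either side or overlapping in exon (squares). The 8 genes stand at 1.65 to 2.62, and the flanking genes drawn at -0.10 to 0.45.

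Because most of the 8 genes are known from neurons, markers of neurons and of nearby cell types were read in the same libraries. In bulk samples, fewer cells of a type and less RNA per cell cannot be told apart. Of 24 pan-neuronal markers 11 were analysed, and their summed level was 56.5, 60.5 and 58.0 scaled RPKM in Cdyl-KO, against 46.0, 42.2 and 49.9 in Cdyl-Het. The groups did not overlap. By limma 3 of the 11 rose and none fell, beside 4.67% higher and 2.83% lower over all genes. At an unadjusted p under 0.05, 5 were higher and 1 lower. The neurofilament gene Nefm rose to 11.53 ± 0.663 in Cdyl-KO, against 6.01 ± 0.454 in Cdyl-Het (0.84, limma adjusted p = 0.00195), and passed in every alternative run. Tubb3, the neuronal beta-tubulin, had 4.02 ± 0.707 in Cdyl-KO and 1.30 ± 0.582 in Cdyl-Het (1.15, limma adjusted p = 0.0195, range over alternatives 0.0181 to 0.0624). Tubb3 missed the threshold without the second (0.0624) or the third (0.0604) Cdyl-KO library and with the replicate number fitted as a block (0.0508). Nsg1 had 4.71 ± 0.306 in Cdyl-KO and 2.91 ± 0.411 in Cdyl-Het (0.55, adjusted p = 0.0171), and missed it without the first Cdyl-KO (0.0612), the second Cdyl-Het (0.0569) or the third Cdyl-Het library (0.0727; range 0.0133 to 0.0727).

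The other 8 pan-neuronal markers did not pass. On the log2 scale Ina stood at 0.54 (limma adjusted p = 0.0714), Stmn2 at 0.34, Ncam1 at 0.17, Map2 at 0.14, Uchl1 at 0.00, Nefl at -0.06, Gap43 at -0.35 and Nefh at -0.57. Of the 11 markers 8 were above 0 and 3 below. Ina and Stmn2 had deposited means under 1 in Cdyl-Het (0.782 and 0.948), so they are in the list through their level in Cdyl-KO. Their direction was thus fixed by the list, and the count above 0 is not read as a result. Elavl3, Elavl4, Snap25, Syt1, Syp, Rbfox3 and Dcx, among the defining markers of neurons, are not analysed here. Of 15 autonomic and sympathoadrenal markers 3 were analysed (Hand2, Gata2 and Gata3), with sums of 7.53 to 9.51 in Cdyl-KO and 9.38 to 10.4 in Cdyl-Het. These sums overlapped, and limma called 0 of the 3 higher and 0 lower, beside 7.5% in either direction over all genes. Gata3 is also among the mesonephros markers. Of 12 neural crest and glia markers 2 were analysed (Ngfr and Ednrb), with sums of 13.7 to 15.4 in Cdyl-KO and 16.8 to 19.7 in Cdyl-Het. Limma called 0 of the 2 higher and 0 lower. Most of that sum was Ngfr, at 12.97 ± 0.960 in Cdyl-KO and 16.1 ± 1.27 in Cdyl-Het, against 1.37 and 1.85 for Ednrb. Ngfr is the mouse gene of the protein whose human form, hCD271, was used to sort the cells. Whether the sorting or the tag affected its reads was not tested. No analysed marker was listed at 0. The pan-neuronal sum was thus the higher one in Cdyl-KO. Its largest part was Ncam1, at 22.8 ± 0.331 in Cdyl-KO and 20.2 ± 0.322 in Cdyl-Het, followed by Nefm. That sum also holds Ina and Stmn2, and Nefl, Gap43 and Nefh, which were lower in Cdyl-KO. The neural crest and glia sum was the lower one and the autonomic sums overlapped, with no gene of these 2 lists called. The part of the marker sums in the result was not tested.

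Other cell types were read in the same way. The 6 analysed endothelial markers summed to 16.7 to 19.1 scaled RPKM in Cdyl-KO and 26.6 to 29.4 in Cdyl-Het, without overlap. Of these, Kdr, Cdh5 and Tek were called lower and none higher, beside 2.83% lower over all genes. By limma at an unadjusted p under 0.05, 6 were lower and 0 higher. Kdr passed in every alternative run. Cdh5 (limma adjusted p = 0.0296, range over alternatives 0.0179 to 0.105) missed the threshold without the first Cdyl-KO library or any single Cdyl-Het library. Tek (0.0472, up to 0.151) missed it without any single library but the second Cdyl-Het library, and with upper-quartile scaling (0.0527). Markers of blood summed to 27.9 to 77.0 in Cdyl-KO and 26.6 to 109 in Cdyl-Het, and those of mesonephros to 17.3 to 21.6 in Cdyl-KO and 15.1 to 21.4 in Cdyl-Het. Of 7 mesonephros markers 1, Pax8, was called higher and none lower, beside 4.67% higher over all genes. Pax8 had 5.98 ± 0.473 in Cdyl-KO and 4.28 ± 0.279 in Cdyl-Het (limma adjusted p = 0.0227, range over alternatives 0.0201 to 0.0717). Its call was lost without any single library but the first Cdyl-Het library. The 10 analysed markers of gonadal somatic cells summed to 407 to 446 in Cdyl-KO and 374 to 425 in Cdyl-Het. Of these 10, 3 were called higher and none lower, beside 4.67% higher over all genes. Emx2 had 79.5 ± 4.24 in Cdyl-KO and 53.4 ± 5.47 in Cdyl-Het (log2 change 0.57, limma adjusted p = 0.0129), and Nr0b1 had 18.1 ± 0.741 in Cdyl-KO and 12.5 ± 0.923 in Cdyl-Het (0.50, adjusted p = 0.00907). Both passed in every alternative run. Lhx9 stood at 0.46 (adjusted p = 0.0273, range 0.0221 to 0.0874), a call lost without any single Cdyl-KO library or the second Cdyl-Het library. The part of these differences in the levels of the 8 genes was not tested.

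**Figure D5:**
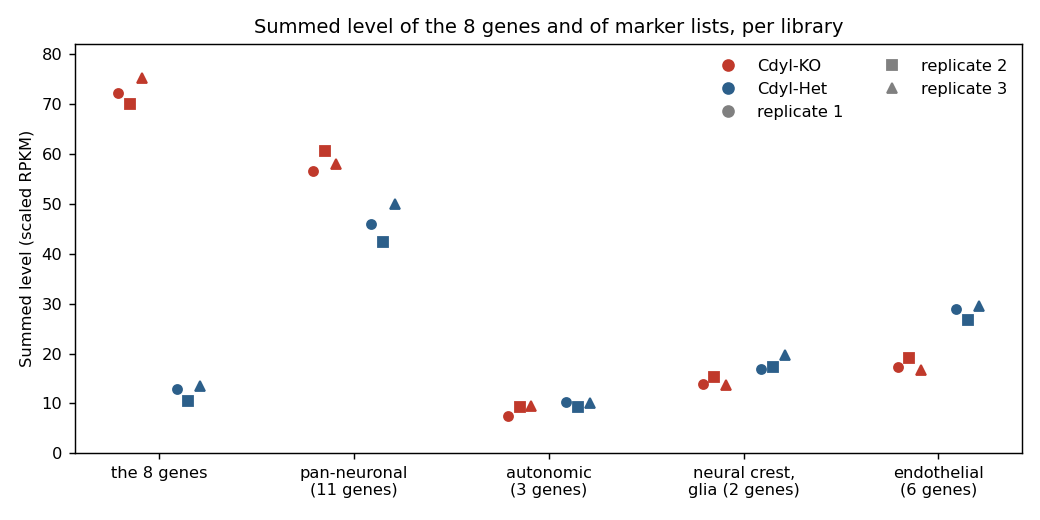
Summed level in scaled RPKM (from 0) of the 8 genes and of marker lists in each library, with Cdyl-KO left of Cdyl-Het. The 8 genes sum to 70.0 to 75.1 in Cdyl-KO and 10.5 to 13.5 in Cdyl-Het, while the pan-neuronal markers sum to 56.5 to 60.5 in Cdyl-KO and 42.2 to 49.9 in Cdyl-Het.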

How the data were processed

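Total RNA of hCD271-positive gonadal cells was measured in 3 Cdyl-KO and 3 Cdyl-Het libraries, made with a stranded kit per the labels' protocols. STAR, featureCounts 1.6.4 (Subread) and mm10 were used, per the submitters' processing notes. The sources used here do not give the annotation, the strand setting, the filter on genes or how counts became normalized values. The authors deposited 1 value per gene and library without a header; the deposited values were taken as RPKM from the values themselves. Where a low value multiplied by the exon length gave whole reads (tolerance 0.02; 85.2% to 87.0% of low values did), the step gave the depth, and 63.9% to 70.1% of those reads were even, so pairs may be counted in full.

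RPKM values were divided by a trimmed mean of log ratios (30% of ratios, 5% of levels) against the first Cdyl-Het library. Limma 3.58.1 (R 4.3.3) was fitted to log2(scaled RPKM + 1) for all 11736 genes, with no term besides group and a trended spread, two-sided, and p-values were adjusted by Benjamini-Hochberg with a threshold of 0.05. Fold changes on this scale understate low genes. The fit was tested on simulated data. Positions come from GENCODE M21, where 11540 symbols (98.3%) matched.

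The 8 genes, the gene lists and the tests were chosen with earlier results of these data known. Named are the 8 genes, Cdyl, their paralogs and nearest neighbours, of each other partner list the called genes with the lowest p (4 at most), the 8 genes most alike in profile and the 8 next in size of change. Some genes that this rule takes are not reported here. Cell-type markers were named after their values were seen or as defining markers. The replicate numbers were fitted as a block only as an alternative, with other scalings, pseudocounts of 0.5 and 0.1, a minimum mean of 2, an untrended spread and each library left out.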

Additional observations from a re-analysis of the deposited data

How the results depend on the processing

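The 8 genes stayed higher and past the threshold in every alternative run, with a median log2 change of 1.83 to 2.45. They were chosen by this change in these same libraries, so nothing is read from their passing again. The median was 2.18 with a pseudocount of 0.5 and 2.45 with 0.1, when 3 and 13 other genes exceeded the lowest of the 8 (1 as reported). With 1 library left out, 1 to 5 other genes did. Without scaling, all genes counted 305 higher and 1558 lower, the partner lists together 5 higher and 21 lower (9 and 7 as reported) and the paralogs 2 lower. With median-of-ratios scaling, upper-quartile scaling or a minimum mean of 2, 1 paralog was lower. With an untrended spread, 5 paralogs were higher. With 1 library left out, all genes counted 197 to 387 higher and 56 to 260 lower, the paralogs 1 to 3 higher and 0 to 1 lower, the partner lists 2 to 4 higher and 1 to 8 lower, and the neighbours 0 to 1 higher. The cause of these shifts was not tested.

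The replicate numbers were not taken as pairs, since same-numbered libraries had correlations of -0.052, -0.27 and -0.0527 in their deviations from the group means, and no library correlated best with its own number. With the replicate number as a block, all genes counted 209 higher and 128 lower, the paralogs 1 higher, the partner lists 3 higher and 2 lower, and the neighbours 0 higher. Vstm2b, Mtcl1, Gria2, Shank1, Cdh5, Tek, Pax8 and Lhx9 were among the genes whose calls were lost in that fit (limma adjusted p = 0.0542 to 0.122). Depth limits the Cdyl-Het values most, which rest on as few as 62 implied reads.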
